A study of Mus musculus with 24 samples.

Results

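The 10 genes described here are effector genes of neuronal activity: Arc, Homer1, Nptx2, Inhba, Ptgs2, Dusp6, Dusp1, Sik1, Tiparp and Nrn1. They were chosen by name, as genes that active neurons are known to induce and whose products act as enzymes, ligands or synaptic proteins. The choice was made with earlier results of these data known, so counts among them are descriptive. They are 10 of the 56750 entries in a table of RNA-seq read counts from mouse medial prefrontal cortex. All 10 passed the filter on low counts, which left 20354 genes for testing. The 24 libraries fall into 6 groups of 4 by their titles, and all carry the genotype label 5xFAD, a transgenic strain that models familial Alzheimer's disease and carries a mutant human APP transgene driven by the neuronal Thy1 promoter. GH_Con has the treatment label control, and SI_Con, from socially isolated mice, the treatment label SI. GH_EE and SI_EE are labelled EE, the enriched environment of the series title, and GH_WT and SI_WT are labelled WT. GH is not spelled out in the labels, and WT is used for libraries whose genotype label is 5xFAD, so these arms are called by their letters. In the WT arm the entry for the human APP transgene had reads in all 8 libraries, at 2345 to 3452 CPM (read counts scaled by TMM library totals) in GH_WT and 2199 to 4685 CPM in SI_WT, beside 337 to 3836 CPM in the other groups. Age and sex are not in the labels, all libraries share 1 batch date, and separate mice per library are not stated, so the p-values below measure the spread between these samples.

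Total counts ran from 33683587 to 51274917 per library. SI_EE 1 stood apart. Its mean over 7 forebrain pyramidal markers was 5.94 log2 CPM, against 7.52 to 8.31 in the other 23 libraries, and its mean over 5 cerebellar markers was 8.75 log2 CPM, against -0.73 to 2.02. It was the lowest library of all for 6 of the 10 genes (Arc, Homer1, Nptx2, Inhba, Ptgs2 and Dusp6). The counts of the 10 genes in comparisons that SI_EE enters are given with and without it. Those of the other pairwise comparisons are also given both ways, since all groups share an estimate of the spread. Those of partner lists are given with all libraries. Of the single pyramidal markers, Tbr1 was as low in another library (22.8 CPM) as in SI_EE 1 (24.8 CPM), with a median of 175 CPM. Long genes, by total exon length and not by genomic span, were lower in GH_Con 2, SI_Con 2, SI_Con 3 and SI_WT 4. There the Spearman correlation of a gene's deviation with its exon length was -0.244, -0.327, -0.276 and -0.352. Read from Xist, 3 libraries of GH_Con and 1 of SI_EE were female, and 2 in each other group, which in SI_Con were replicates 1 and 2. Thalamus and habenula markers averaged 4.04 and 4.16 log2 CPM in GH_WT 2 and 4, the highest of all libraries. Without the 6 libraries high for these markers, the log2 differences of Arc and Tiparp between GH_WT and GH_Con given below were 1.67 and 0.58. That fit kept only replicates 1 and 3 of GH_WT and replicate 2 of SI_EE. GH_WT 4, left out, was the lowest of its group for Arc (187 CPM). Over 19 alternative settings, that fit among them, the differences were 0.63 to 0.89 for Sik1, 0.49 to 0.66 for Dusp6 and 0.45 to 0.83 for Dusp1. The part of these markers in the differences was not tested. In such bulk samples, fewer cells of a type and less RNA per cell cannot be told apart.

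Synaptic activity and the calcium that enters with it switch on a first wave of genes within minutes, without new protein synthesis. One branch of that wave encodes transcription factors such as Fos and Egr1. The other, described here, encodes proteins that act directly on the neuron: Arc and Homer1 reshape the postsynaptic density, Nptx2, Inhba and Nrn1 act outside the cell on synapses and survival, and Dusp1, Dusp6 and Sik1 feed back on the signalling that induced them. In prefrontal cortex these transcripts are widely read as a record of recent neuronal activity.

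Promoter sequence was matched by symbol in RefSeq (GRCm38.p6) for 6 of the 10 genes, giving 7 windows of up to 250 bases upstream of a start site. Arc, Nptx2, Sik1 and Nrn1 had no entry. The 3 windows below are shown because they differ in the elements they hold. Capitals mark the cAMP response element TGACGTCA or its core TGACG in the first pair and the TATA box TATAAA in the last. Each is written 5′ to 3′ on the strand of its gene. The Dusp1 sequence is cut to 203 bases where it meets an annotated exon of the gene. It therefore stops short of the start site at position 26508472, from which its distances below are counted.
Dusp1, chr17:26508520-26508722, minus strand: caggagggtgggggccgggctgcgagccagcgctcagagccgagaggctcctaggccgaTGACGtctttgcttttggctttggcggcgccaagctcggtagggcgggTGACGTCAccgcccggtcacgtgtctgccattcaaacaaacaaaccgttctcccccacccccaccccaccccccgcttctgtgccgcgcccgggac
Homer1, first start site, chr13:93303507-93303756, plus strand: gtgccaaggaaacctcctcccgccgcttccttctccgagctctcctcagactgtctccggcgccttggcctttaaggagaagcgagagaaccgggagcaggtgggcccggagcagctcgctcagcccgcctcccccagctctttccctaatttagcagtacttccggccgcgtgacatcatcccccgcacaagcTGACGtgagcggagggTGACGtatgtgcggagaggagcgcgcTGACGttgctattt
Inhba, chr13:16011601-16011850, plus strand: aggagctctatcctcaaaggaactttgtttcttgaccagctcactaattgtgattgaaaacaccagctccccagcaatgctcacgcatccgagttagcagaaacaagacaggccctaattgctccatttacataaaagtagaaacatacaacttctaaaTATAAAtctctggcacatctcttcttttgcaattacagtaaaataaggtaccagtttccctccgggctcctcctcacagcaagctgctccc
Dusp1 was the only one of the 6 genes whose window held the full palindrome TGACGTCA, 143 bases upstream of the start site, which 1.55% of 32851 RefSeq promoters hold on either strand. The core TGACG, searched on both strands and contained in the full element, lay once more 191 bases upstream in Dusp1 and 3 times in Homer1, at 56, 40 and 14 bases. That core was present in 17.8% of promoters. Inhba held TATAAA 91 bases upstream, a motif present in 12.4%. Neither motif family was found in the windows of Ptgs2, Dusp6 and Tiparp, nor at the second Homer1 start site, and no window held a CArG box, the binding motif of serum response factor (1.47% of promoters). GCGTG, the core of the element that the aryl hydrocarbon receptor binds, lay in the windows of 4 of the 6 genes (Homer1, Inhba, Ptgs2 and Tiparp) and in 28.2% of promoters. A match is a run of letters and not a measured binding site. Dusp6 and Tiparp, whose windows held neither motif family, had the highest Pearson's r with Arc across libraries (0.84 and 0.68, given below). A relation of motifs to levels was not tested.

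**Figure D1:**
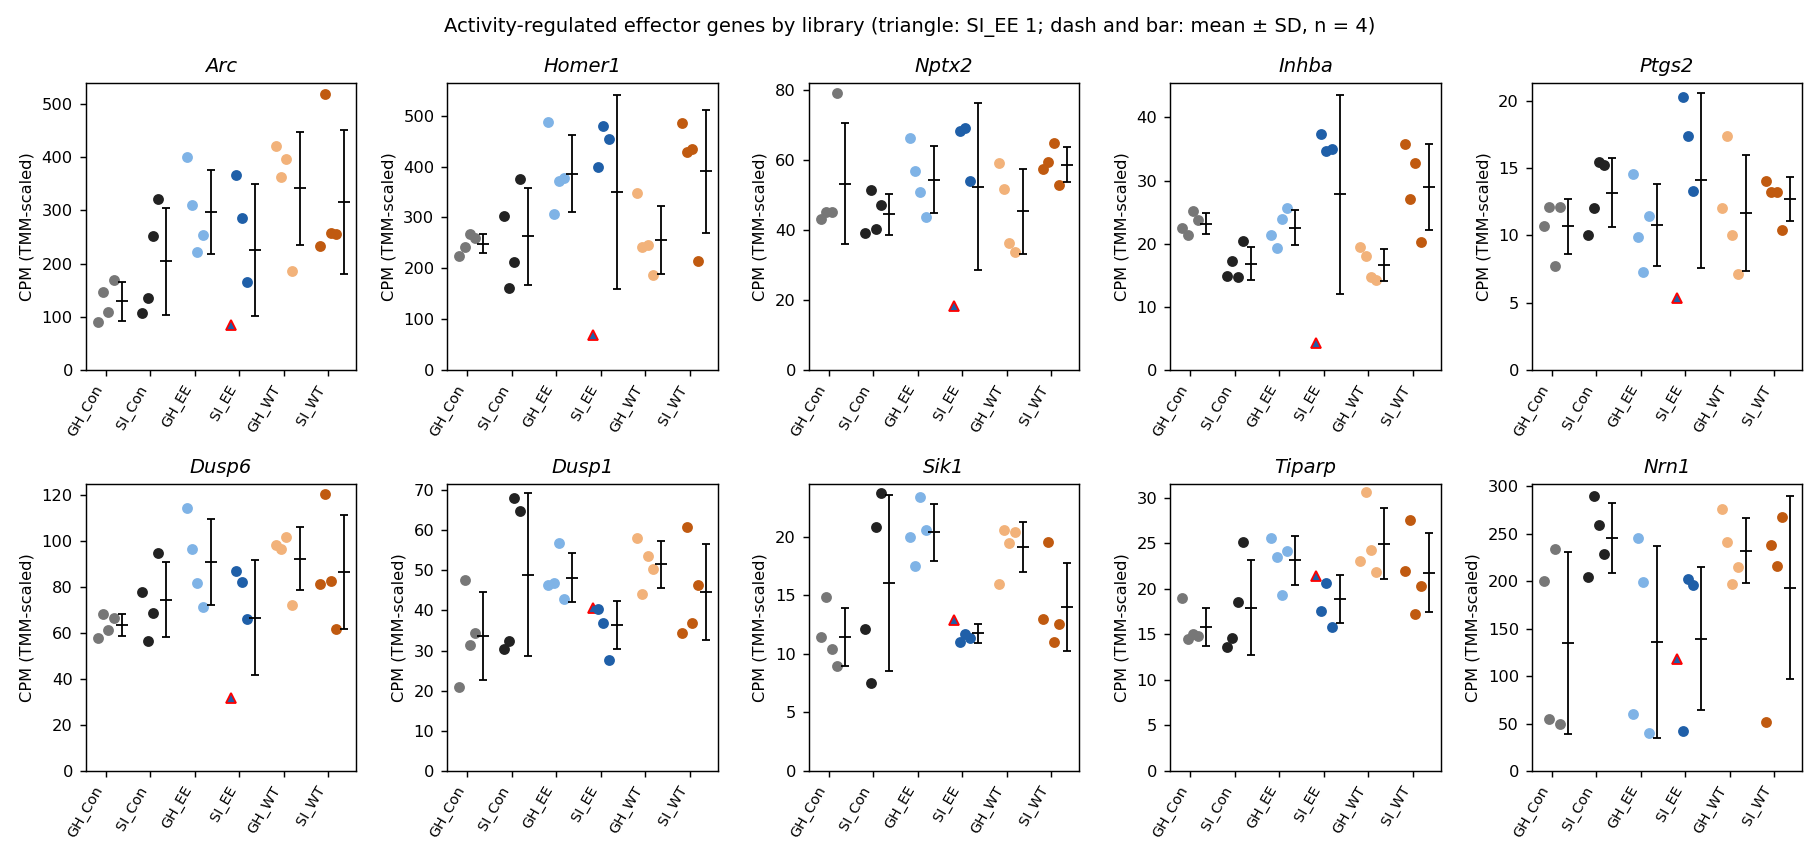
Level of each of the 10 genes in every library (CPM on TMM-scaled totals, linear axes from 0), by group; points are libraries, the dash and bar the mean and SD over 4 libraries, and the triangle SI_EE 1. The GH_Con points of Arc, Sik1 and Tiparp lie below all GH_EE and GH_WT points, and the triangle lies far below the other SI_EE points for Inhba and Homer1.

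Arc, which drives the removal of AMPA receptors from synapses, is a short gene on chr15:74669083-74672570 (GRCm38, minus strand). In GH_Con it was at 91.0, 146, 109 and 170 CPM (replicates 1 to 4). In GH_EE it was at 401, 311, 221 and 253 CPM, and in GH_WT at 422, 363, 397 and 187 CPM. Neither group overlapped GH_Con. The difference from GH_Con was 1.20 ± 0.40 on the log2 scale (SE) for GH_EE, with an edgeR unadjusted p of 0.00731 and an adjusted p of 0.575. For GH_WT it was 1.41 ± 0.41 (edgeR unadjusted p = 0.00232, adjusted p = 0.9999). These 2.30-fold and 2.65-fold differences did not pass adjustment over all genes, and both rest on the same 4 GH_Con libraries. In isolated mice Arc spread more widely, at 108, 135, 253 and 321 CPM in SI_Con, 85.0, 366, 286 and 165 CPM in SI_EE, and 233, 519, 258 and 255 CPM in SI_WT. The SI groups overlapped each other, and against SI_Con the log2 difference was 0.14 ± 0.40 for SI_EE (0.43 ± 0.39 without SI_EE 1) and 0.63 ± 0.40 for SI_WT.

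Homer1 encodes scaffold proteins that link metabotropic glutamate receptors to the postsynaptic density, and its short, activity-induced form uncouples them. The gene spans chr13:93299635-93405129 (GRCm38, plus strand) with 12 annotated transcripts, and a count per gene does not separate the short form from the long ones. Homer1 was at 225 to 267 CPM in GH_Con and at 307 to 488 CPM in GH_EE, which did not overlap, with a log2 difference of 0.63 ± 0.39 (SE, edgeR unadjusted p = 0.116). With SI_EE 1 left out of the shared fit that difference was 0.64 ± 0.25 (edgeR unadjusted p = 0.0175, adjusted p = 0.504). GH_WT, at 187 to 348 CPM, lay around the GH_Con values. In isolation the 3 SI_EE libraries other than SI_EE 1 were at 400, 480 and 454 CPM and SI_EE 1 at 68.7 CPM, while SI_Con was at 162 to 376 CPM. Without SI_EE 1 the log2 difference between SI_EE and SI_Con was 0.76 ± 0.26 (edgeR unadjusted p = 0.00883, adjusted p = 0.396), against 0.41 with all libraries.

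Nptx2, a secreted pentraxin that gathers AMPA receptors on interneurons, had group means close to each other, from 44.5 ± 5.81 CPM in SI_Con to 58.7 ± 4.97 in SI_WT (SD, n = 4; chr5:144545902-144557478, plus strand). The 4 SI_WT libraries (52.9 to 64.9 CPM) all lay above the 4 SI_Con libraries (39.1 to 51.5 CPM). That log2 difference was 0.40 ± 0.29 (SE) with an edgeR unadjusted p of 0.178 in the fit with all libraries. In GH_Con, replicate 4 was at 79.1 CPM and the others at 43.2 to 45.3 CPM. SI_EE 1 was at 18.2 CPM and the other SI_EE libraries at 54.0 to 69.3 CPM. Without SI_EE 1 Nptx2 was 0.53 ± 0.21 above SI_Con on the log2 scale (edgeR unadjusted p = 0.0173, adjusted p = 0.416).

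Inhba encodes the beta-A subunit of activin, a secreted ligand of the TGF-beta family that neurons release after strong activity (chr13:16011851-16031621, plus strand). In isolated mice of the EE arm it was at 37.3, 34.6 and 35.0 CPM in SI_EE 2, 3 and 4, and at 4.34 CPM in SI_EE 1. SI_Con was at 14.9, 17.3, 14.7 and 20.4 CPM. The 3 other SI_EE libraries lay above every library of SI_Con and, but for SI_WT 1 at 35.8 CPM, above every library of the remaining groups. With all 24 libraries the log2 difference was 0.73 ± 0.36 (SE, edgeR unadjusted p = 0.0586, adjusted p = 0.417). Without SI_EE 1 it was 1.09 ± 0.16 (SE), an edgeR unadjusted p of 1.11e-06 and an adjusted p of 0.0230. Inhba was then the single gene of 20718 tested that passed in this comparison (0.00483% of genes), and it was 1 of the 2 genes that passed the test of any difference among the 6 groups (adjusted p = 0.0261, 0.00965% of genes). The fits with and without SI_EE 1 thus differ in the call, and the gene is named for the second because it is the library whose tissue markers stood apart. In GH mice no such difference was seen. Inhba was at 19.3 to 25.7 CPM in GH_EE and 21.3 to 25.2 CPM in GH_Con, a log2 difference of -0.04.

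The call of Inhba without SI_EE 1 rested on 3 SI_EE libraries and moved with the settings. Over 16 further settings, chosen after the data had been seen, the log2 difference stayed between 1.01 and 1.20, with an unadjusted p of at most 3.45e-05, and the adjusted p was under 0.05 in 7 of the 16. Of 7 fits that each left out 1 more library, 1 kept it under 0.05. The adjusted p was 0.329 when only both groups entered the fit and 6.55e-06 in DESeq2, which called 52 genes there. In the libraries compared, the mean of the pyramidal markers was 7.88 to 8.12 log2 CPM in SI_EE 2 to 4 and 7.52 to 8.31 in SI_Con, and that of 5 meningeal fibroblast markers was 2.29 to 2.80 and 1.87 to 2.44 log2 CPM. Thalamus and habenula markers averaged -0.37, 1.19 and 2.06 log2 CPM in SI_EE 2, 3 and 4 and -0.87 to 1.45 in SI_Con. The part of these cells in the Inhba difference was not tested.

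In the WT arm Inhba also had higher values in isolation, at 35.8, 27.1, 32.8 and 20.2 CPM in SI_WT against 19.5, 18.1, 14.7 and 14.3 CPM in GH_WT, with no overlap. The log2 difference was 0.80 ± 0.36 (SE, edgeR unadjusted p = 0.0381, adjusted p = 0.906). Without SI_EE 1 in the shared fit, its SE was 0.15 and the adjusted p 0.354, since all groups share 1 estimate of the spread. Blood markers averaged -1.76 to -0.53 log2 CPM in SI_WT and -0.38 to 2.71 in GH_WT, without overlap, and meningeal fibroblast markers 0.86 to 1.72 and 1.69 to 3.17. In untreated mice the order was the other way: SI_Con lay below GH_Con without overlap, at a log2 difference of -0.46 ± 0.36. Oligodendrocyte markers also lay wholly lower there, at 7.74 to 8.18 log2 CPM in SI_Con and 8.32 to 8.69 in GH_Con, and 2 SI_Con libraries and 1 of GH_Con are among those with lower long genes. The part of these markers and libraries in the Inhba differences was not tested. The difference between those effects, the interaction of the WT arm with housing, was 1.27 ± 0.51 (edgeR unadjusted p = 0.0222, adjusted p = 1), and 1.27 with an adjusted p of 0.149 without SI_EE 1.

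Among the other genes of the activin pathway, none of 15 had an unadjusted p under 0.05 between SI_EE and SI_Con with all libraries, beside 12.6% of all genes. Their median log2 difference was -0.00, beside 0.01 over all genes tested. The lowest p of the list belonged to Acvr1c, a type I receptor, at 46.8 CPM in SI_EE and 34.8 CPM in SI_Con on average. Against GH_Con, GH_EE had 1 of the 15 with such a p, beside 6.32% of all genes: Smad3, an intracellular transducer of activin, at 94.3 and 75.6 CPM (log2 difference 0.32 ± 0.15 SE).

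Nrn1, the small surface-anchored ligand neuritin that promotes neurite growth (chr13:36725361-36735131, minus strand), did not spread around a group mean as the other genes did. In 6 libraries it was at 40.5 to 60.1 CPM, and in the other 18 at 118 to 290 CPM. The 6 lower libraries were GH_Con 2 and 4, GH_EE 1 and 4, SI_EE 2 and SI_WT 1, so that 4 of the 6 groups held libraries on both sides, and SI_Con (205 to 290 CPM) and GH_WT (197 to 276 CPM) held none of the lower ones. No group comparison gave Nrn1 an edgeR unadjusted p under 0.05. The groups SI_EE and SI_Con did not overlap, at a log2 difference of -0.82 ± 0.59 (SE, unadjusted p = 0.183). Nrn1 shares exon bases with Fars2 on the opposite strand, and whether the counting used strand is not given in the sources used here. Fars2 itself was at 10.1 to 19.8 CPM in the 6 lower libraries and 11.2 to 18.9 CPM in the others.

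**Figure D2:**
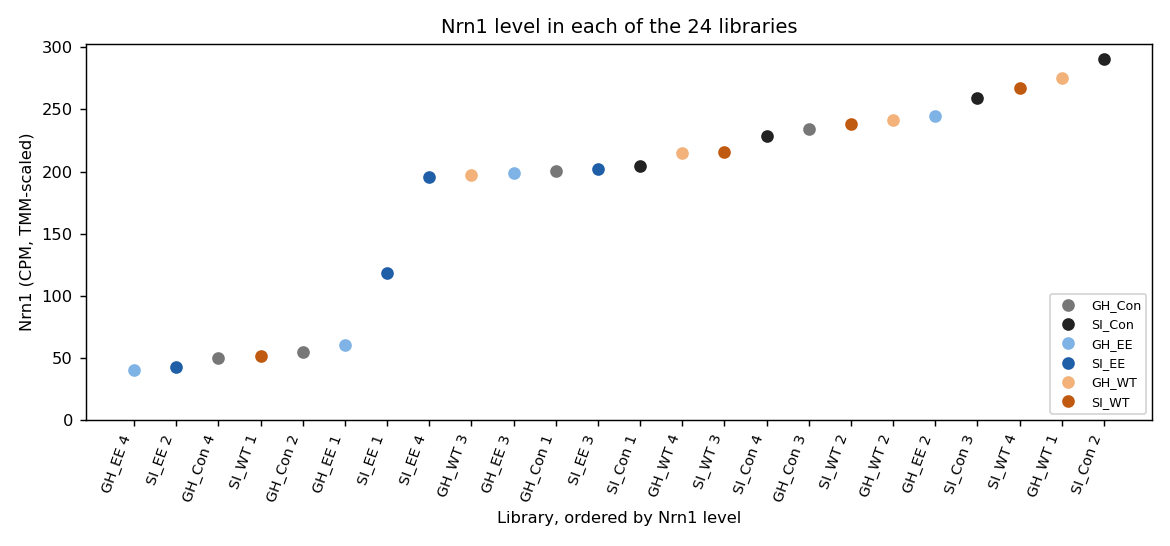
Nrn1 level (CPM on TMM-scaled totals, linear axis from 0) in each of the 24 libraries, ordered by level and coloured by group. The 6 lowest libraries lie at 40.5 to 60.1 CPM, SI_EE 1 at 118 CPM and the remaining 17 above it, with libraries of 4 groups on both sides of the gap.

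Ptgs2, the inducible cyclooxygenase that starts prostaglandin synthesis and that excitatory neurons of cortex express with activity (chr1:150100031-150108227, plus strand), had the lowest level per length of the 10, 2.66 CPM per kb of exon. Its group means ran from 10.7 ± 2.05 CPM in GH_Con to 14.1 ± 6.50 CPM in SI_EE (SD, n = 4), and the groups overlapped in each of the 9 comparisons. In SI_EE, replicate 1 was at 5.32 CPM and the others at 20.3, 17.4 and 13.3 CPM. Without SI_EE 1 the log2 difference of SI_EE from GH_EE was 0.66 ± 0.25 (SE, edgeR unadjusted p = 0.0170), with an adjusted p of 1. Of the other 17 measured genes of prostanoid synthesis and signalling, 1 had an unadjusted p under 0.05 between GH_EE and GH_Con (6.32% of all genes): Hpgds, the haematopoietic prostaglandin D synthase found in microglia, at 6.45 and 9.94 CPM (log2 difference -0.62 ± 0.29 SE).

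Dusp6, a cytoplasmic phosphatase that inactivates ERK (chr10:99263231-99267489, plus strand), was at 57.8 to 68.4 CPM in the 4 GH_Con libraries. GH_EE was at 114, 96.7, 81.9 and 71.1 CPM and GH_WT at 98.5, 96.7, 102 and 72.2 CPM, both above all of GH_Con. The log2 differences were 0.52 ± 0.24 (SE, edgeR unadjusted p = 0.0436) and 0.54 ± 0.24 (edgeR unadjusted p = 0.0365), and neither passed adjustment (0.773 and 0.9999). In isolation the groups overlapped, and the log2 difference from SI_Con was -0.16 for SI_EE, with SI_EE 1 at 31.7 CPM, and 0.22 for SI_WT. Without SI_EE 1 the sign turned, to 0.08 ± 0.20 (SE).

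Dusp1, the nuclear phosphatase of JNK, p38 and ERK (chr17:26505590-26562128, minus strand), was most uneven in the untreated groups. GH_Con was at 21.0, 47.5, 31.3 and 34.2 CPM, and SI_Con at 30.5, 32.4, 68.0 and 64.8 CPM, so that SI_Con 3 and 4 were the highest libraries of all and SI_Con 1 and 2 lay within GH_Con. The log2 difference was 0.55 with an edgeR unadjusted p of 0.0427 and an adjusted p of 0.738. GH_WT (44.0 to 58.1 CPM) differed from GH_Con by 0.62 on the log2 scale (edgeR unadjusted p = 0.0234, adjusted p = 0.9999). In EE the order of housing was the other way: SI_EE (27.7 to 40.6 CPM) lay wholly below GH_EE (42.7 to 56.8 CPM), at -0.41 ± 0.25 (unadjusted p = 0.123). Dusp1 shares exon bases with Ergic1 on the opposite strand, and without a stated use of strand their reads cannot be told apart there.

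Sik1, a kinase of the AMPK family that cAMP induces and that restrains CREB coactivators (chr17:31844250-31855804, minus strand), had values in EE that differed by housing in every library. GH_EE was at 20.0, 17.5, 23.4 and 20.6 CPM, and SI_EE at 12.9, 11.1, 11.7 and 11.4 CPM. SI_EE thus lay below GH_EE in all 4 libraries, SI_EE 1 included, at a log2 difference of -0.79 ± 0.25 (SE, edgeR unadjusted p = 0.00456, adjusted p = 0.416). GH_Con was at 11.5, 14.9, 10.5 and 8.99 CPM, below every GH_EE library and every GH_WT library (16.0, 20.6, 19.4 and 20.5 CPM). The log2 differences from GH_Con were 0.83 ± 0.25 (edgeR unadjusted p = 0.00311, adjusted p = 0.537) and 0.74 ± 0.25 (edgeR unadjusted p = 0.00727, adjusted p = 0.9999). SI_Con was split, at 12.2, 7.53, 20.9 and 23.7 CPM in replicates 1 to 4, and SI_WT was at 11.1 to 19.5 CPM. By Xist, SI_Con 1 and 2 were female and SI_Con 3 and 4 male. Arc, Dusp1, Ptgs2 and Tiparp were also higher in both of these male libraries, while the remaining members overlapped between the pairs. The source of the split was not tested.

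Tiparp, a mono-ADP-ribosyltransferase that the aryl hydrocarbon receptor induces and that also responds to neuronal activity (chr3:65528410-65555518, plus strand), had its lowest group mean in GH_Con, at 19.0, 14.5, 15.0 and 14.8 CPM. GH_EE was at 25.6, 23.5, 19.3 and 24.1 CPM, and GH_WT at 23.1, 30.6, 24.2 and 21.9 CPM. Both lay above all of GH_Con, by 0.55 ± 0.18 (SE, edgeR unadjusted p = 0.00553, adjusted p = 0.552) and 0.66 ± 0.18 (edgeR unadjusted p = 0.00130, adjusted p = 0.9999) on the log2 scale. Of the measured genes of the aryl hydrocarbon receptor pathway, 2 of 11 had an unadjusted p under 0.05 between GH_EE and GH_Con, both with lower values, beside 3.70% of all genes: the receptor repressor Ahrr at 0.557 and 1.35 CPM, and Parp12 at 9.58 and 12.4 CPM. Tiparp overlaps an exon of the pseudogene 4931440P22Rik on the opposite strand, which had 620 reads in all.

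Per kb of exon, the order of the 10 genes by mean level over the 24 libraries was Arc (82.5 CPM per kb), Nrn1 (80.2), Homer1 (26.4), Dusp6 (25.3), Nptx2 (20.3), Dusp1 (13.2), Tiparp (4.68), Inhba (3.55), Sik1 (3.01) and Ptgs2 (2.66). Arc varied 6.10-fold between its lowest and highest library and Tiparp 2.26-fold. For 8 of the 10 genes the lowest of the 6 group means was that of GH_Con; Nptx2 was lowest in SI_Con and Inhba in GH_WT.

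Between GH_EE and GH_Con, 9 of the 10 genes had a positive log2 difference, and 4 (Arc, Sik1, Tiparp and Dusp6) had an edgeR unadjusted p under 0.05, all higher in GH_EE, beside 2.62% of all genes with such a p and a higher value. In 5 genes the groups did not overlap, with GH_EE higher, beside 4.50% of all genes. The members' median log2 difference was 0.52 and that of all genes -0.02. Between GH_WT and GH_Con, 8 of 10 were positive and 5 (the same 4 and Dusp1) had an unadjusted p under 0.05, all higher, beside 1.78% of all genes. Groups did not overlap in 4 genes with GH_WT higher (2.20% of all genes) and in 1, Inhba, with GH_WT lower (2.02%). The median was 0.58, against -0.01 over all genes. Both comparisons use the same GH_Con libraries. With all libraries, GH_EE and GH_WT set against each other gave 0 of 10 with an unadjusted p under 0.05 (3.65% of all genes). Without SI_EE 1 in the shared fit there were 2, Inhba and Homer1, beside 5.13% of all genes. Both were higher in GH_EE, by 0.44 ± 0.15 and 0.59 ± 0.25 (SE) on the log2 scale. Against GH_Con there were then 5 in GH_EE (8.13% of all genes), with Homer1 added. In GH_WT there were 6 (4.59%), with Inhba added at a lower value. None of these passed adjustment.

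In isolated mice and between housings the counts were 0 or 1 of 10 with all libraries, and 0 to 3 without SI_EE 1. Between SI_EE and SI_Con, 0 of 10 had an edgeR unadjusted p under 0.05 with all libraries (12.6% of all genes), and without SI_EE 1 there were 3, Inhba, Homer1 and Nptx2, all with higher values in SI_EE (10.5% of all genes). Between SI_WT and SI_Con there was 1, Inhba (3.84%), at a log2 difference of 0.79 and an unadjusted p of 0.0421, and 1 gene, Nptx2, did not overlap with SI_WT higher (0.796% of all genes). Without SI_EE 1 in the shared fit there were 3, Inhba, Homer1 and Nptx2, all with higher values in SI_WT (4.88%). Nrn1 alone did not overlap between SI_EE and SI_Con, with SI_EE lower (2.40%). Between SI_EE and SI_WT there was none with all libraries (10.2%) and none without SI_EE 1 (6.37%). The effect of isolation itself was 1 of 10 without treatment, Dusp1 (6.53% of all genes), 1 in the WT arm, Inhba (5.37%), and 1 in EE, Sik1 (8.70%), where 2 genes, Sik1 and Dusp1, did not overlap and were lower (2.01%). Without SI_EE 1 there were 3 in EE, beside 3.72% of all genes: Inhba and Ptgs2 with higher values in SI_EE, each by 0.66 on the log2 scale, and Sik1 with lower ones. In that fit there were 2 without treatment, Dusp1 with higher and Inhba with lower values in SI_Con (8.5% of all genes). In the WT arm there were also 2, Inhba and Homer1, both with higher values in SI_WT (7.22%). None of these differences between housings passed adjustment. Inhba was the gene without overlap between housings outside EE, lower in SI_Con than in GH_Con (2.61%) and higher in SI_WT than in GH_WT (1.36%). Averaged over the 3 arms, isolation gave none with all libraries (8.61%), and without SI_EE 1 it gave 2, Inhba at 0.33 ± 0.09 and Ptgs2 at 0.36 ± 0.14 (SE), beside 7.71%.

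No gene of the 10 passed an edgeR adjusted p under 0.05 in any of the 15 tests with all libraries, and neither DESeq2 nor limma-voom called one. Over all 20354 genes the share called was 0% in 11 of the tests, 0.00491% in 3 (GH_EE against GH_Con, SI_EE against GH_EE, GH_EE against GH_WT) and 0.0491% for any difference among the 6 groups. In that last test 3 of the 10 (Arc, Sik1 and Tiparp) had an unadjusted p under 0.05, beside 8.23% of all genes, with a smallest adjusted p of 0.452. Without SI_EE 1 there were 5 (those 3, Inhba and Homer1), beside 7.89%. In counts simulated for GH_EE against GH_Con over 20354 genes, adjusted calls recovered 34% of 50 genes changed 1.5-fold and 78% of 50 changed 2-fold. Those counts held 50 genes changed at each of 1.5, 2, 3 and 4-fold, and many true changes loosen the adjustment. In the data 1 gene passed in that comparison, so these shares are not the chance of a call for the 10 genes.

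**Figure D3:**
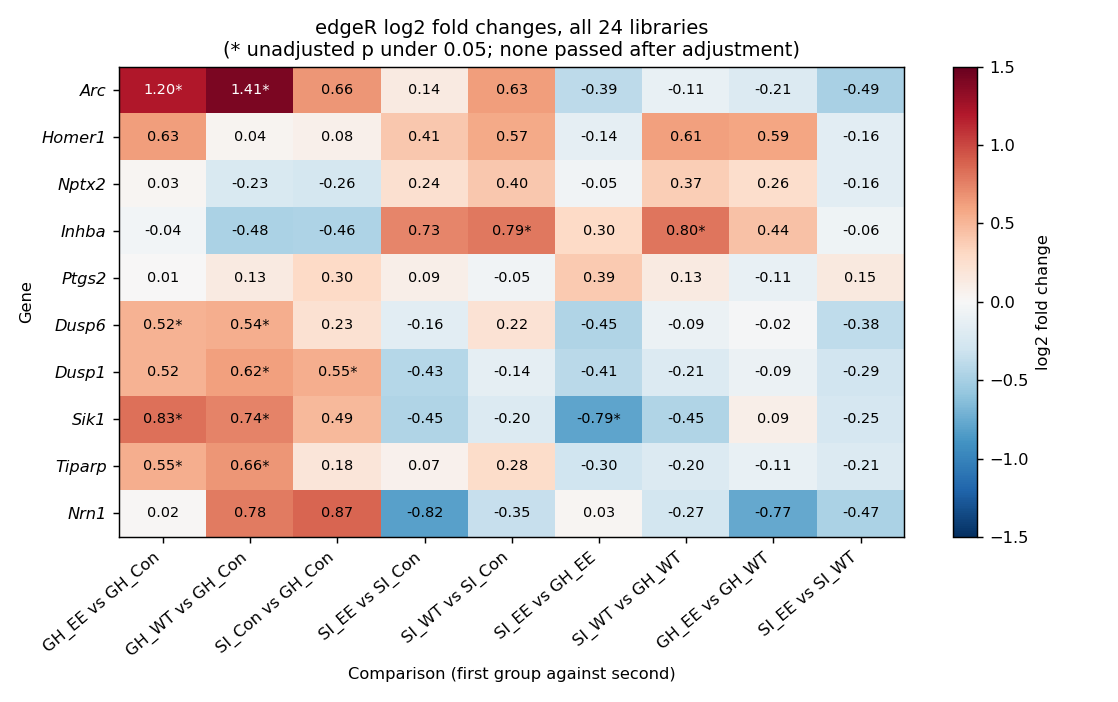
edgeR log2 fold changes of the 10 genes (rows) in the 9 pairwise comparisons (columns, first group against second), all 24 libraries; red is higher and blue lower in the first group, and an asterisk marks an unadjusted p under 0.05. The asterisks gather in the 2 leftmost columns, which share GH_Con, and none passed after adjustment.

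Whether EE and the WT arm differed from the untreated mice in the same way in both housings was tested by the interactions. For EE, 2 of 10 had an unadjusted p under 0.05, Sik1 at -1.28 ± 0.35 (SE, edgeR unadjusted p = 0.00151, adjusted p = 0.511) and Dusp1 at -0.95 ± 0.36 (unadjusted p = 0.0145, adjusted p = 0.546), beside 7.74% of all genes. Negative values mean that the signed EE difference was lower in isolated than in GH mice. For both genes its sign also turned, from 0.83 in GH to -0.45 in SI for Sik1 and from 0.52 to -0.43 for Dusp1. In Sik1 the EE groups were 20.4 ± 2.44 CPM in GH and 11.8 ± 0.805 CPM in SI, and the untreated groups 11.4 ± 2.50 and 16.1 ± 7.53 CPM (SD, n = 4). Without SI_EE 1 there were 3 of 10, beside 6.38% of all genes. Inhba then had the smallest p, with an interaction of 1.13 ± 0.22 (SE, edgeR unadjusted p = 4.9e-05, adjusted p = 0.445), Sik1 was at -1.32 (adjusted p = 0.628) and Dusp1 was also negative (adjusted p = 0.696). For the WT arm, 3 of 10 had an unadjusted p under 0.05 (4.52% of all genes): Inhba at 1.27, and Sik1 and Dusp1 at -0.94 and -0.75. Housing thus entered with opposite signs for Inhba and for this kinase and phosphatase, at p-values that did not pass adjustment.

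Averaged over housing, EE gave 9 of 10 positive log2 differences, with Arc (0.67 ± 0.28 SE) and Tiparp (0.31 ± 0.13) at an edgeR unadjusted p under 0.05, beside 11.5% of all genes. Without SI_EE 1 there were 5, Inhba, Homer1, Arc, Dusp6 and Tiparp, beside 13.2%, with a smallest adjusted p of 0.124 for Inhba. The WT arm averaged over housing had positive values for 10 of 10, and Arc (1.02 ± 0.29), Tiparp (0.47 ± 0.13) and Dusp6 (0.38 ± 0.17) had an unadjusted p under 0.05, beside 2.52% of all genes. The adjusted p of each of these 3 was 1.

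Across libraries most of the genes moved with Arc. Over the 24 libraries, log2 CPM of Dusp6 had Pearson's r 0.84 and Spearman's rho 0.89 with Arc (permutation p = 1e-05, the smallest that 100000 resamples can give, adjusted over 9 pairs 9e-05). Tiparp had r 0.68 and rho 0.71 (permutation p = 0.00032 and 0.00021, adjusted 0.00144 and 0.000945), and Dusp1 r 0.66 and rho 0.60 (permutation p = 0.00053 and 0.00282, adjusted 0.00159 and 0.00846). Homer1, Ptgs2, Sik1 and Nptx2 had r between 0.51 and 0.56 and rho between 0.42 and 0.50. Their permutation p for r was 0.00291, 0.00484, 0.00758 and 0.00934 in that order, adjusted 0.00655, 0.00871, 0.0114 and 0.0120. For rho the adjusted values were 0.0304, 0.0332, 0.0560 and 0.0304, so Sik1 missed the threshold by rank. Inhba had r 0.36 and rho 0.16 (permutation p = 0.0851 and 0.452, adjusted 0.0957 and 0.452). These points share the TMM scaling of each library and the groups.

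Only part of that relation held when libraries were left out. The 2 libraries farthest from the median of Arc were SI_EE 1 and GH_Con 1. Without them r was 0.82 for Dusp6, 0.84 for Tiparp, 0.63 for Dusp1 and 0.54 for Sik1, each with an adjusted permutation p under 0.05. For Homer1, Ptgs2 and Nptx2 it was 0.39, 0.45 and 0.31, with an adjusted permutation p of 0.112, 0.0654 and 0.210. With each value centred on its group mean, r was 0.83 for Dusp6, 0.78 for Ptgs2 and 0.68 for Nptx2, each with an adjusted permutation p under 0.05, and 0.41 for Tiparp and 0.33 for Sik1. Dusp6 alone had an adjusted permutation p for r under 0.05 in all 4 forms: all libraries, without SI_EE 1, centred, and without the 2 farthest. The second and last of these forms both leave out SI_EE 1, and the centred form keeps it. Nrn1 falls into separate clusters, so no pooled value is given: over its 6 lower libraries r was -0.11 (permutation p = 0.818, exact), and over the 18 higher ones 0.46 (permutation p = 0.0483) with rho 0.37 (permutation p = 0.136). Those 18 include SI_EE 1, the lowest of them for both genes (Arc 85.0 CPM, Nrn1 118 CPM). The relation over the 18 without that library was not tested.

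**Figure D4:**
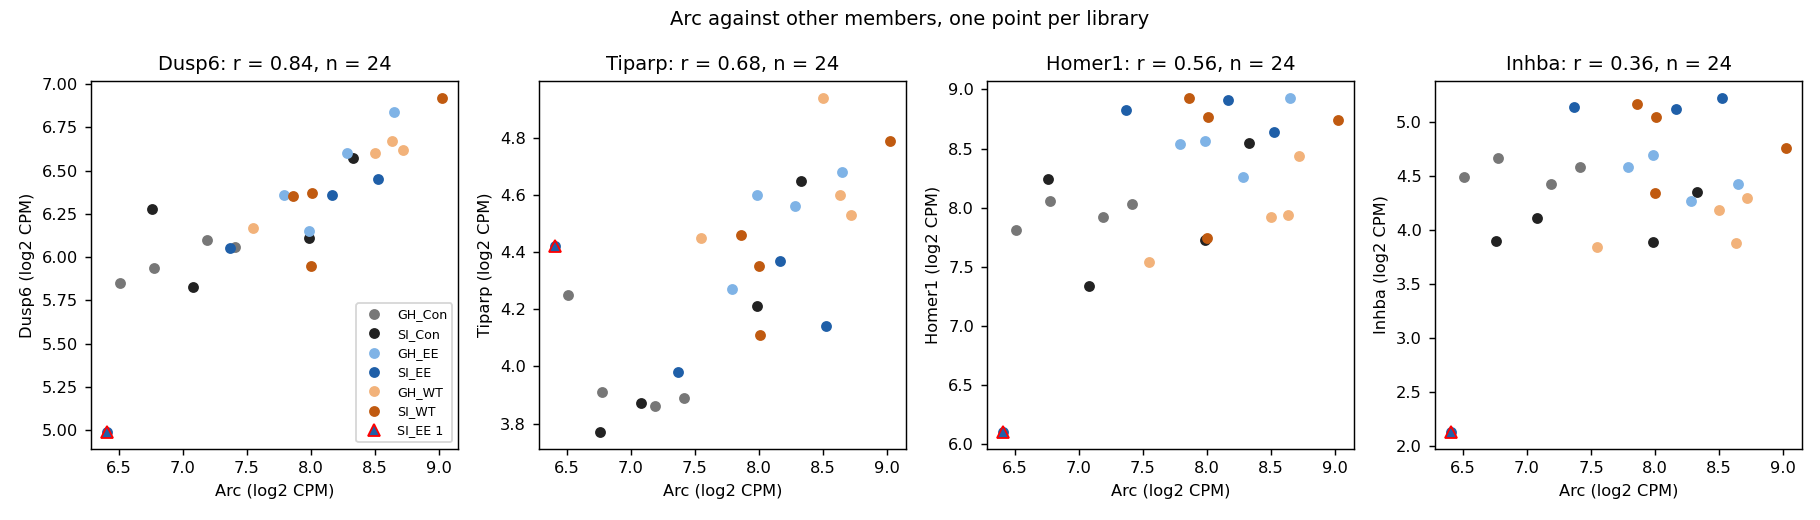
Arc (x axis, log2 CPM) against Dusp6, Tiparp, Homer1 and Inhba (y axes, log2 CPM), 1 point per library coloured by group, with SI_EE 1 as a triangle. Dusp6 follows Arc over the whole range (r 0.84), while the Inhba points other than SI_EE 1 show little slope.

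By Pearson's r with the mean of the 10 standardized log2 levels over 24 libraries, the highest of 11371 genes were Egr1 (0.92), Fosl2 (0.88), Nr4a1 (0.88), Midn (0.86) and Fosb (0.86). Over the 23 libraries without SI_EE 1 they were Spry4 (0.93), Nr4a1 (0.92), Midn (0.92), Trib1 (0.90) and Trib2 (0.88). The mean of the standardized levels lay between -0.69 and -0.42 SD in the 4 GH_Con libraries, and 3 of the 20 other libraries were at or below the higher of these: SI_Con 1, SI_Con 2 and SI_EE 1.

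Among the genes of the same activity wave, the immediate early transcription factors had mostly positive differences from GH_Con too. In GH_EE 17 of 20 were positive and 5 had an edgeR unadjusted p under 0.05 with higher values, beside 2.62% of all genes, and 1 with a lower value (3.70%); the median log2 difference was 0.52. Egr2, a zinc-finger factor, was at 12.1 ± 2.52 CPM in GH_EE and 4.06 ± 2.05 in GH_Con (SD, n = 4), and Nr4a1, an orphan nuclear receptor, at 121 ± 23.8 and 66.4 ± 17.1 CPM. In GH_WT 16 of 20 were positive and 7 had such a p, all with higher values (1.78% of all genes), with Fos, the partner of Jun in AP-1, at 39.3 ± 11.8 CPM against 16.6 ± 8.06 (SD, n = 4). None passed adjustment. Of 30 other activity-regulated effectors, 28 were positive in GH_EE, with 6 at an unadjusted p under 0.05, all higher (2.62% of all genes), and 23 in GH_WT, with 4, all higher (1.78%); Midn was at 64.9 and 61.5 CPM in these groups and 42.3 CPM in GH_Con. In SI_EE against SI_Con the transcription factors counted 13 of 20 positive, with 1 higher and 1 lower at an unadjusted p under 0.05, and the other effectors 15 of 30, with 3 higher and 1 lower, beside 12.6% of all genes.

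For direct partners of the 10 proteins in GH_EE against GH_Con, counts stand beside 6.32% of all genes with an unadjusted p under 0.05. Of 14 Arc partners (endocytic adaptors, CaMKII and AMPA receptor subunits) 6 were positive, with a median of -0.06, and 1 had such a p, the dynamin Dnm2, at 43.5 and 51.3 CPM. Of 13 Homer partners, 0 had such a p, and of 6 pentraxin partners 0. Of 21 feedback regulators of ERK, 14 were positive and 5 had such a p, all higher (2.62% of all genes), among them Spry4 (19.1 ± 4.55 against 10.8 ± 1.89 CPM, log2 difference 0.83 ± 0.22 SE) and Dusp4 (13.9 ± 5.37 against 6.73 ± 1.01 CPM, 1.04 ± 0.35 SE). In GH_WT 2 of the 21 had such a p, again Spry4 and Dusp4 with higher values (1.78% of all genes). In the salt-inducible kinase pathway 1 of 12 did in GH_EE, the class IIa deacetylase Hdac5, at 145 and 129 CPM, and of 8 neuritin partners and kin 0 did. No gene of these lists passed adjustment against GH_Con.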

How the data were processed

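Total RNA of 24 mouse medial prefrontal cortex samples was sequenced on the Illumina platform, per the labels' protocols. The deposited values are raw counts of reads per gene, in whole numbers. mm10 is the build in the submitters' processing notes; which aligner, counter, annotation release and strand setting the authors used is not given in the sources used here. Gene positions are from GENCODE M21 (GRCm38), and 52073 of 56750 entries (91.8%) matched a symbol; entries without one held 0.695% of reads and were tested under their ID. Total counts of 33683587 to 51274917 per library set the precision.

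The main test was edgeR's quasi-likelihood test (version 4.0.16, R 4.3.3) with TMM scaling, filterByExpr by group, robust fitting and no covariate, with 24 libraries in 1 fit and Benjamini-Hochberg adjustment over 20354 genes (threshold 0.05). There were 9 pairwise contrasts, 2 interactions, 3 averages and 1 test of any difference. log2 CPM used a prior count of 2. Alternatives were DESeq2 1.42.0, limma-voom (limma 3.58.1), other scalings, no filter, a replicate block, sex read from Xist, and leaving out libraries. The script was tested on simulated data. All 10 genes are named; a log2 difference is stated as a comparison where its unadjusted p is under 0.05, and for partner lists up to 2 genes with the smallest p. Non-overlap values, SI_EE 1 left out of comparisons it does not enter, and the Nrn1 gap were added after the data had been seen. The members, lists and markers were chosen with earlier results of these data known. The lists are described by counts and not tested.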

Additional observations from a re-analysis of the deposited data

Results flagged for a closer look

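In each of 60 sets (10 genes in 6 groups of 4 libraries), the highest and lowest library were compared with their nearest neighbour as a share of the range of the group. A library stood apart in 8 of the 60 by Dixon's 95% critical value for 4 samples, and chance flags about 1 in 20 such sets. SI_EE 1 was the low library for Homer1 (68.7 CPM, gap over range 0.906) and Inhba (4.34 CPM, 0.965); its forebrain pyramidal and cerebellar markers also stood apart. SI_WT 2 was the high library for Arc (519 CPM, 0.870). SI_WT 4, which had the lowest length correlation of the 4 libraries with lower long genes (-0.352), was low for Homer1 (214 CPM, 0.845) and SI_WT 1 low for Nrn1 (51.7 CPM, 0.869). GH_Con 4 was high for Nptx2 (79.1 CPM, 0.924) and GH_Con 1 high for Tiparp (19.0 CPM, 0.871). GH_WT 4 was low for Dusp6 (72.2 CPM, 0.848). No causes were tested.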

How the results depend on the processing

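Leaving out 1 library in turn gave 0 to 1 members called between SI_EE and SI_Con and 0 to 1 for any difference among the 6 groups, the 1 being Inhba without SI_EE 1; every other leave-one-out count was 0, as with all libraries. Of the 9 relations with Arc, 7 had an adjusted p under 0.05 over all libraries, 4 without SI_EE 1, 3 with values centred on the group mean and 4 without the 2 libraries farthest from the median of Arc; the cause was not tested. Of 528 alternative fits of the 24 log2 differences stated as comparisons, 446 kept an unadjusted p under 0.05 and none changed sign. DESeq2 kept 24, limma-voom 18, sex as covariate 19, and leaving out the 4 libraries with lower long genes 19. Replicate numbers did not pair the samples: the deviations of 60 same-numbered pairs had a median correlation of -0.013 (range -0.284 to 0.182), and 4 of 24 libraries correlated best with their own number. With the replicate block 0 members were called and 20 of the 24 kept an unadjusted p under 0.05, while the adjusted p of Inhba in SI_EE against SI_Con without SI_EE 1 was 0.112. Depth did not limit detection of these genes, whose lowest count in any library was 172. With 4 libraries a group, the simulation recovered 34% of 1.5-fold changes, but it held more changed genes than were called in the data.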

Other observations

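The gap in Nrn1 was set beside the widest gap of other genes, a measure chosen after the data had been seen. Over 10819 genes with a mean log2 CPM over 3, the widest step between neighbouring libraries, with at least 4 libraries on each side, had a median of 0.09 and a 95th percentile of 0.33 on the log2 scale. Nrn1 had a step of 0.97, with 67 genes (0.619%), itself included, at or above that size, and the next of the members were Ptgs2 at 0.34 and Arc at 0.32. Genes with wider steps included Xist (7.14, the X-inactivation RNA, high in 12 libraries), Rpl29 (4.15), Tgfa (2.33), Hnrnpa3 (2.24), Rac1 (1.83) and Mef2c (1.56). No other gene split the libraries into the same 6 and 18, in either direction. The source of the Nrn1 gap was not tested.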
